A study of Sus scrofa with 4 samples.

Results

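Heat shock proteins and the J-domain proteins that work with them are the molecular chaperones of the cell, and 59 of the 29263 genes counted in each library belong to these families by name. They were chosen by the form of the gene name alone (HSP90, HSPA, HSPB, HSPD, HSPE, HSPH, DNAJA, DNAJB and DNAJC genes), without regard to their values. They comprised 2 HSP90 genes, 11 HSP70 and HSP110 genes, 6 small heat shock protein genes, HSPB11, the 2 genes of the mitochondrial chaperonin, 3 DNAJA, 10 DNAJB and 24 DNAJC genes. They were measured in lung cells from pigs whose LGR5 locus carries a knock-in (LGR5-H2B-GFP), so that a fluorescent histone marks cells with transcription of this R-spondin receptor gene. Flow sorting split the cells by fluorescence, into bright ones (GFP-HI) and dark ones (GFP-NEG). Each fraction was sequenced in 2 biological replicates, and both fractions carry the same knock-in. The sample labels do not say whether the lung was adult or fetal (the authors' comparison table is named for adult pig) or whether the EPCAM and NGFR antibodies of the protocol set a gate here. The labels do not name the animals either, and p-values measure the spread between these libraries.

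HSP70 proteins bind unfolded stretches of other proteins in a cycle driven by ATP. J-domain proteins deliver the substrate and start ATP hydrolysis, and exchange factors such as HSP110 release the product. HSP90 acts later, on proteins close to their folded state, and small heat shock proteins hold unfolding proteins without using ATP. Separate members serve the cytosol, the endoplasmic reticulum (ER) and the mitochondrion. Heat shock factor 1 (HSF1) induces many cytosolic members within minutes of heat or proteotoxic stress, and enzymatic digestion of tissue is known to induce some of them together with immediate early genes. The constitutive members are made in most cell types, lung cells included.

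The GFP-HI libraries held 24200550 and 24689986 counts and the GFP-NEG libraries 6292253 and 7045652, so depth and fraction cannot be told apart. LGR5 followed the sort labels, with 3218 and 3073 counts against 10 and 7. In GFP-HI, 6 of 10 fibroblast markers were called higher, 9 of 11 immune and 7 of 8 endothelial markers lower. Of all tested genes 8.35% were called higher and 27.6% lower. Summed fibroblast markers were at 73224 to 83912 CPM (counts scaled to 1e6 per library after TMM adjustment) in GFP-HI against 9201 to 26275 in GFP-NEG. Epithelial markers were low in both fractions (214 to 238 CPM summed in GFP-HI, 151 to 556 in GFP-NEG). All 8 had negative log2 fold changes (GFP-HI minus GFP-NEG), with a median of -1.14, and 2 were called lower. In bulk libraries of mixed cells, fewer cells of a type and less RNA per cell cannot be told apart.

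Few chaperone genes passed the test between the fractions. Of the 59 members, 54 passed the filter on low counts, and 6 of these had an adjusted p-value under 0.05, against 36% of all 19682 tested genes (edgeR quasi-likelihood test, Benjamini-Hochberg over all genes). HSPB6, DNAJC12, DNAJC19 and DNAJC27 were higher in GFP-HI (8.35% of all tested genes were called higher), and HSPA6 and HSPB7 were lower (27.6% were called lower). Among tested genes with a symbol, 11.3% were called higher and 15.2% lower. The fold change lay between -1 and 1 on the log2 scale for 42 of the 54 members. Both libraries of one fraction lay outside the range of the other for 22 members (15 with GFP-HI above, 7 below), or 40.7%. Over all tested genes this was 69.7% (27.7% with GFP-HI above and 42% below).

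The median log2 fold change (GFP-HI minus GFP-NEG) was 0.28 over the 54 members, -0.25 over all tested genes and 0.22 over tested genes with a symbol. The sign of the members' median depended on scaling: it was -0.04 with upper-quartile scaling and -0.15 with library size alone, when the median of all genes moved to -0.58 and -0.68. Of 32 single genes followed through all alternatives, 13 had an uncalled value whose sign changed in at least 1 of them, at sizes up to 0.51. The sign of 1 called value changed as well, that of HSPA6, which was 0.0012 without GFP-NEG replicate 1.

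The share of all genes called also moved with the method. With upper-quartile scaling 5.5% were called higher and 28.6% lower, with library size alone 4.51% and 29.1%, and at a mean of at least 10 CPM 3.78% and 9.96%. The odorant receptor level was a filter on fraction means. It kept genes whose mean in either fraction exceeded the 95th percentile of odorant receptor gene means there. The shares above it were 6.03% and 17.1%, and with GFP-HI thinned to the depth of GFP-NEG 7.01% and 21.6%. DESeq2 called 5.6% higher and 24.9% lower, edgeR with the replicate number as a block 8.67% and 24.4%, and DESeq2 with that block 5.86% and 15.2%. Leaving out GFP-HI replicate 1 gave shares of 7.63% and 23.8%, and leaving out GFP-HI replicate 2 gave 4.53% and 21.7%. The fit lacking GFP-NEG replicate 1 gave 7.82% and 20.5%, and the fit lacking GFP-NEG replicate 2 gave 1.04% and 6.98%.

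**Figure D1:**
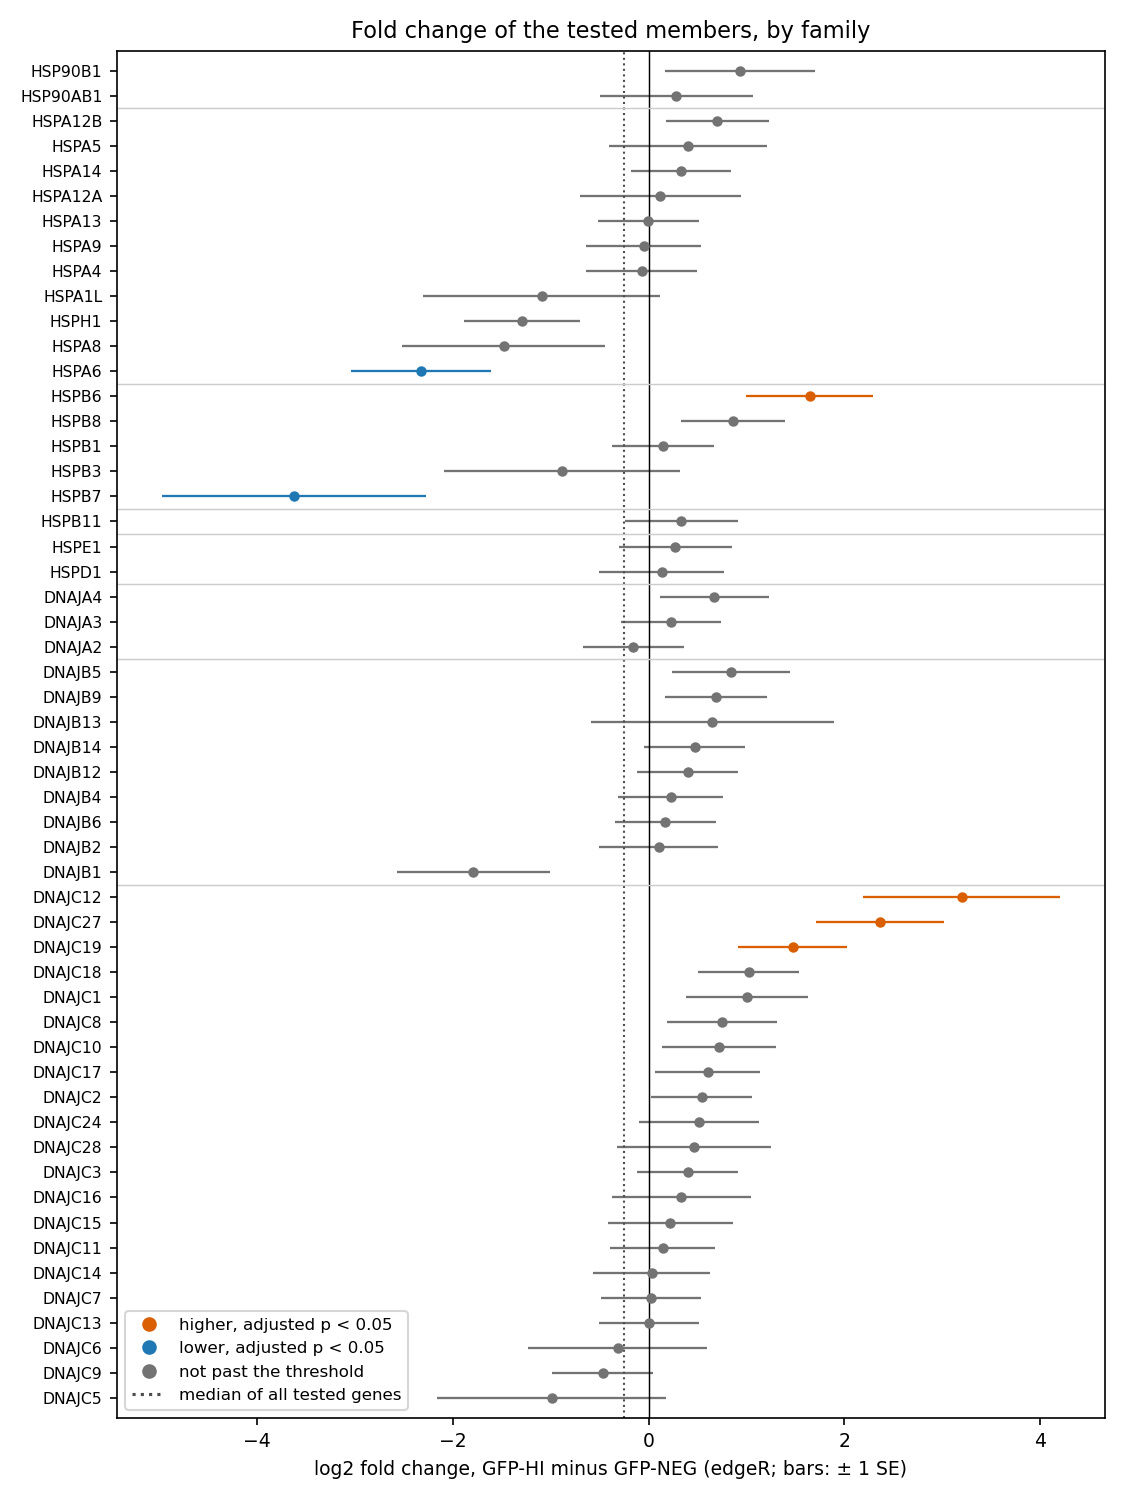
Log2 fold change (GFP-HI minus GFP-NEG, horizontal axis) of the 54 tested members, grouped by family and ordered within it, with bars of 1 standard error from edgeR. Most points lie within 1 unit of 0. The 4 orange points (HSPB6, DNAJC12, DNAJC27 and DNAJC19) and the 2 blue points (HSPA6 and HSPB7) passed the threshold, and the dotted line marks the median of all tested genes (-0.25).

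Of 7 cytosolic members that are HSF1 targets or close relatives of them, grouped after the values were seen, HSPA6 alone was called. It was lower, as were 27.6% of all tested genes. HSPA8, DNAJB1 and HSPH1 had both GFP-HI libraries below both GFP-NEG libraries, an order that 42% of all tested genes had. HSP90AB1, HSPB1 and DNAJB4 had positive fold changes. The median of the 7 was -1.29, and 0.0012 without GFP-NEG replicate 1. With upper-quartile scaling or library size alone all 7 were negative. HSPA8, the constitutive cytosolic HSP70, was at 1146 and 1201 CPM in the GFP-HI libraries (replicates 1 and 2) and at 3435 and 3108 CPM in the GFP-NEG libraries. The fractions were well apart and the replicates close. The log2 fold change was -1.48 (SE 1.04), which did not pass in edgeR (adjusted p = 0.28) but passed in DESeq2 (adjusted p = 0.0081). In the edgeR fit the spread of each gene was moderated fully toward the trend over all genes, so a gene's own replicates set little of its SE.

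DNAJB1, the J-domain partner of cytosolic HSP70 in breaking up aggregates and a classic HSF1 target, was at 363 and 183 CPM in GFP-HI against 1321 and 569 CPM in GFP-NEG. Each GFP-NEG library was above both GFP-HI libraries. Within replicate 1 the gene was 3.64 times as high in GFP-NEG, and within replicate 2 it was 3.11 times as high. Its log2 fold change of -1.79 (SE 0.78) missed the threshold in edgeR (adjusted p = 0.060) and passed it with the replicate number as a block (adjusted p = 0.042), with upper-quartile scaling (0.022), with library size alone (0.016) and in DESeq2 (0.010, or 6.8e-04 with the block). It was -1.06 without GFP-NEG replicate 1 (adjusted p = 0.37) and -1.36 without GFP-HI replicate 2 (adjusted p = 0.40).

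HSPH1, an HSP110 protein that acts as an exchange factor for HSP70, showed the same order. It was at 115 and 59.5 CPM in GFP-HI against 287 and 140 CPM in GFP-NEG, 2.50 and 2.35 times as high in GFP-NEG within replicates 1 and 2. Its log2 fold change of -1.29 (SE 0.60) did not pass (adjusted p = 0.077, edgeR), although it passed with upper-quartile scaling (adjusted p = 0.022) and library size alone (adjusted p = 0.017), and in DESeq2 with the replicate block (adjusted p = 0.030). It was -0.68 without GFP-NEG replicate 1 (adjusted p = 0.53) and -0.87 without GFP-HI replicate 2 (adjusted p = 0.43).

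HSPA6, a strictly stress-induced HSP70, was lower in GFP-HI by the test, and 1 library set that result. Its level was 164 and 65.4 CPM in GFP-HI against 1033 and 114 CPM in GFP-NEG. GFP-NEG replicate 1 was far above the other 3 libraries, and GFP-NEG replicate 2 lay between the GFP-HI libraries. The log2 fold change was -2.32 (SE 0.71, adjusted p = 0.0047, edgeR) with all libraries and 0.0012 without GFP-NEG replicate 1 (adjusted p = 0.999). The call was also lost on leaving out GFP-HI replicate 2 (-1.80, adjusted p = 0.26), at a mean of at least 10 CPM (adjusted p = 0.092) and above the odorant receptor level (adjusted p = 0.059). Within replicate 1 HSPA6 was 6.31 times as high in GFP-NEG, and within replicate 2 it was 1.75 times as high.

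HSP70.2, which RefSeq lists with HSPA1A and HSPA1B as its synonyms and which encodes the main heat-inducible HSP70, carried only an identifier in the count tables and is therefore not among the 59. Its pattern was that of HSPA6: 672 and 256 CPM in GFP-HI against 2339 and 410 CPM in GFP-NEG, and the log2 fold change was -1.57 (SE 0.85, adjusted p = 0.14, edgeR), or 0.18 without GFP-NEG replicate 1. The cytosolic HSP70 genes are closely related in sequence, and how reads that match several of them were assigned is not given in the sources used here, so the split between HSP70.2, HSPA6, HSPA1L and HSPA8 is uncertain. HSPA1L, which neighbours HSP70.2 in the RefSeq annotation of Sscrofa11.1, had 6 to 18 counts per library and was not called (adjusted p = 0.52, edgeR).

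These stress-induced genes also differed between replicates in both fractions, in the same order. In replicate 1 relative to replicate 2, HSPA6 was 2.50 times as high in GFP-HI and 9.02 times in GFP-NEG, HSP70.2 was 2.63 and 5.71 times as high, DNAJB1 1.99 and 2.32 times, and HSPH1 1.93 and 2.05 times. HSPA8 did not share this: its ratio was 0.954 in GFP-HI and 1.11 in GFP-NEG. The order was not particular to stress-induced genes, since the ER member DNAJC1 was 2.34 and 2.58 times as high. In GFP-NEG, replicate 1 was above replicate 2 for 7 of the 7 cytosolic members grouped above, 8 of 9 ER members and 7 of 7 mitochondrial members. In GFP-HI this held for 4 of 7, 1 of 9 and 2 of 7. Genes that respond to tissue dissociation were lower in GFP-HI than in GFP-NEG, with 8 of 14 called lower (27.6% of all tested genes were) and a median log2 fold change of -2.04. The number called lower was 1 without GFP-HI replicate 2, 4 without GFP-NEG replicate 2 and 5 with GFP-NEG replicate 1 removed. None was called higher (0 by edgeR, 0 at an unadjusted p under 0.05 and 0 by DESeq2). The stress factor gene ATF3 fell by 3.13 on the log2 scale (adjusted p = 2.3e-04) and the immediate early gene NR4A1 fell by 3.26 (adjusted p = 2.1e-05, both edgeR). Their summed level was 3748 and 2130 CPM in GFP-HI against 12747 and 9881 in GFP-NEG, higher in replicate 1 in both fractions. The part of the dissociation response, or of the cell types that differ between the fractions, in the HSP70 and DNAJB1 values was not tested.

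**Figure D2:**
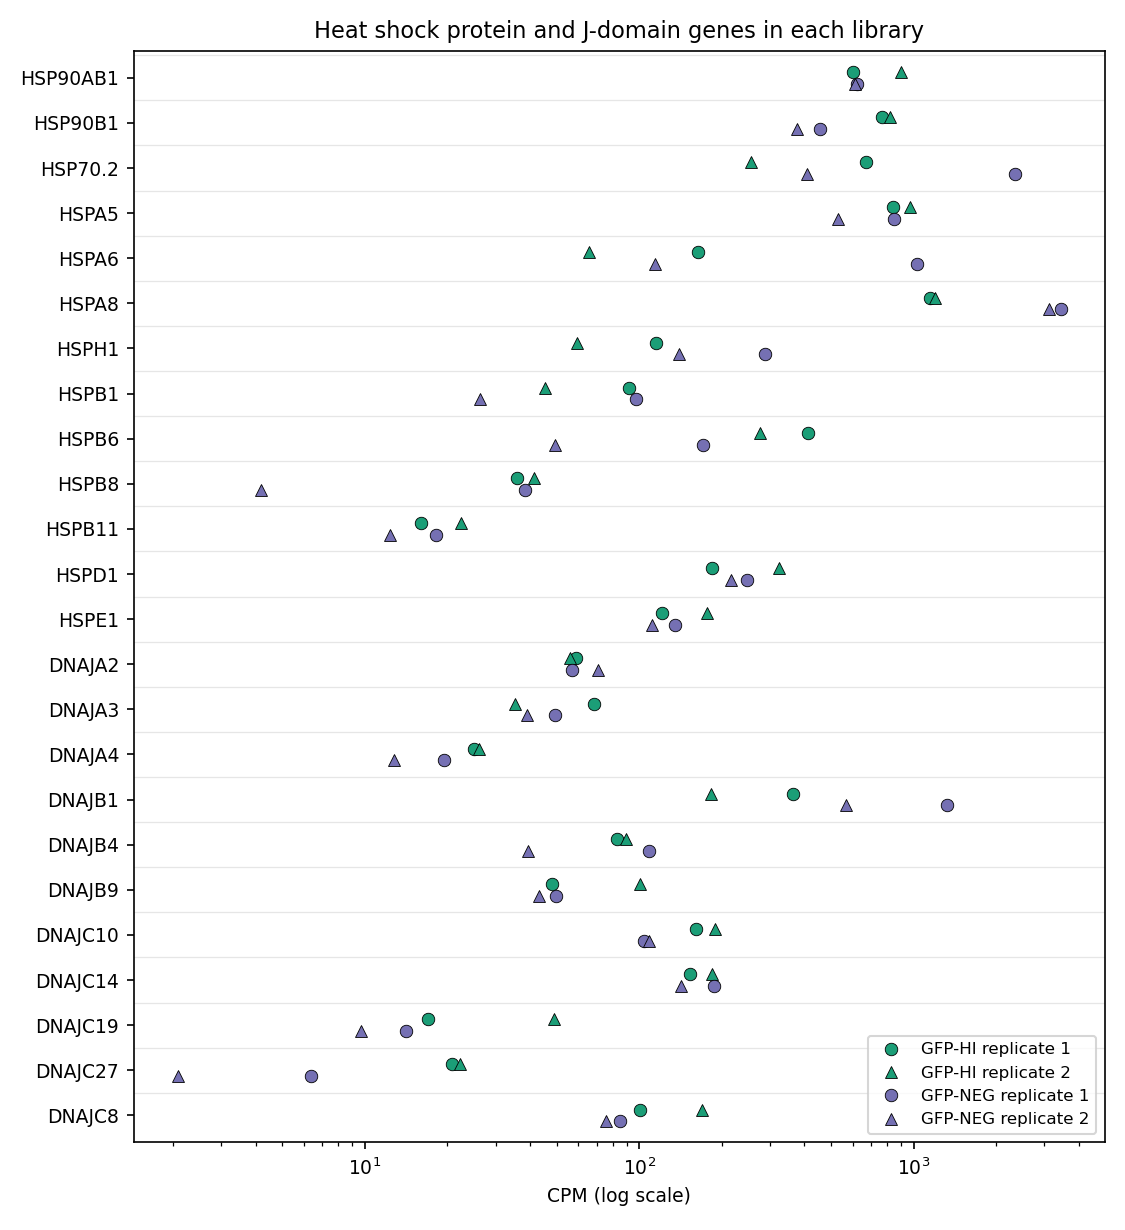
CPM (log axis) of the members named by rule plus HSPH1 and HSP70.2 in each of the 4 libraries. Colour gives the fraction and symbol the replicate. HSPA8, DNAJB1 and HSPH1 have both GFP-NEG libraries to the right of both GFP-HI libraries, HSPB6, DNAJC19 and DNAJC27 have the opposite order, and for HSPA6 and HSP70.2 only GFP-NEG replicate 1 stands apart.

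HSP90AB1, HSPA4, HSPA14, HSPA12A and HSPA12B had smaller fold changes between the fractions than HSPA8, DNAJB1 and HSPH1. HSP90AB1, the constitutive cytosolic HSP90, was at 603 and 903 CPM in GFP-HI against 623 and 614 CPM in GFP-NEG, with a fold change on the log2 scale of 0.28 (SE 0.78, adjusted p = 0.82, edgeR). HSP90AA1, its inducible counterpart, was not analysed here. HSPA4, an HSP110 relative of HSPH1, was at 149 and 88.1 CPM against 152 and 96.8 CPM, higher in replicate 1 in both fractions. HSPA14, an HSP70 bound to ribosomes together with DNAJC2, was at 44.4 and 62.8 CPM in GFP-HI against 37.1 and 48.2 CPM in GFP-NEG. HSPA12A and HSPA12B, distant members of the family, had log2 fold changes of 0.12 and 0.70 and were not called (adjusted p = 0.93 and 0.31, edgeR).

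Summed over all 59 members, the level was 6612 and 7039 CPM in GFP-HI against 10333 and 7246 CPM in GFP-NEG, nearly equal in replicate 2. As a share of raw counts, without TMM scaling, the members held 0.603% and 0.575% of the GFP-HI libraries and 1.06% and 0.938% of the GFP-NEG libraries. HSPA8, HSPA6 and DNAJB1 made up 25.3% and 20.6% of member counts in GFP-HI against 56.0% and 52.3% in GFP-NEG. For the other 56 members the outcome depended on the scale. Their share of raw counts was 0.450% and 0.457% in GFP-HI against 0.465% and 0.447% in GFP-NEG, overlapping, whereas their sum after TMM scaling was 4939 and 5590 CPM in GFP-HI against 4544 and 3454 CPM in GFP-NEG, apart with GFP-HI above. The 3 genes were chosen after their values were seen.

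Chaperones of the ER did not pass the test in either direction. HSP90B1, the ER form of HSP90 (GRP94), was at 767 and 823 CPM in GFP-HI against 454 and 376 CPM in GFP-NEG. Both GFP-HI libraries were above both GFP-NEG libraries, by 1.69 times within replicate 1 and 2.19 times within replicate 2, with a log2 fold change of 0.94 (SE 0.77, adjusted p = 0.36, edgeR). HSPA5, the ER form of HSP70 (BiP), was at 843 and 971 CPM in GFP-HI against 846 and 530 CPM in GFP-NEG. It was 0.997 times its GFP-NEG level within replicate 1 and 1.83 times within replicate 2, and it was not called (log2 fold change 0.40, SE 0.81, adjusted p = 0.75, edgeR).

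DNAJC10, an ER J-domain protein with disulfide reductase activity, was at 161 and 189 CPM in GFP-HI against 104 and 109 CPM in GFP-NEG, apart but not called (log2 fold change 0.72, SE 0.58, adjusted p = 0.36, edgeR). DNAJB9, a BiP co-chaperone that restrains the stress sensor IRE1, was at 48.1 and 101 CPM in GFP-HI against 49.7 and 43.0 CPM in GFP-NEG, with 1 high library. DNAJC3, an inhibitor of the kinase PERK and a BiP co-chaperone, had a log2 fold change of 0.40, and DNAJC1, another ER J-domain protein, 1.01, neither called (adjusted p = 0.58 and 0.21, edgeR). Over 9 ER members grouped by location after the values were seen, 8 fold changes were positive, the range was -0.003 to 1.01, the median was 0.47, and 0 were called (edgeR; 0 at an unadjusted p under 0.05 and 0 by DESeq2). That median was 0.17 with upper-quartile scaling and 0.05 with library size alone. DNAJB11, an ER co-chaperone of BiP found by identifier only and so not in the group, had a log2 fold change of -0.39. Of the fixed list of ER folding and unfolded protein response genes, 1 of 19 was called higher and 2 lower. Over all tested genes 8.35% were called higher and 27.6% lower. P4HB, the disulfide isomerase subunit of collagen prolyl hydroxylase, rose by 1.47 on the log2 scale (adjusted p = 0.020), while PPP1R15A, a feedback phosphatase subunit of the stress response, fell by 2.48 (adjusted p = 0.0029) and EDEM1, a mannosidase-like factor of ER-associated degradation, fell by 1.33 (adjusted p = 0.033, all edgeR). DESeq2 called P4HB and PPP1R15A but not EDEM1 (adjusted p = 0.063). The EDEM1 call was also lost with the replicate block (adjusted p = 0.057, edgeR, or 0.12 in DESeq2) and with no filter on low counts (0.063). It was lost too at a mean of at least 10 CPM (adjusted p = 0.053) and above the odorant receptor level (0.071, both edgeR). Its log2 fold change was -1.38 without GFP-HI replicate 1, -1.16 without GFP-HI replicate 2, -1.75 without GFP-NEG replicate 1 and -0.71 without GFP-NEG replicate 2. P4HB was not called with upper-quartile scaling (adjusted p = 0.058) or library size alone (0.083), at a mean of at least 10 CPM (0.20), above the odorant receptor level (0.066), or when GFP-HI replicate 1 (adjusted p = 0.30), GFP-NEG replicate 1 (0.052) or GFP-NEG replicate 2 (0.42) was left out. PPP1R15A lost its call on leaving out GFP-HI replicate 2 (adjusted p = 0.13).

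Ratios of 2 genes within a library need no scaling between libraries. The count ratio of HSPA5 to HSPA8 was 0.736 and 0.808 in GFP-HI against 0.246 and 0.170 in GFP-NEG. The ratio of HSPA9, the mitochondrial HSP70, to HSPA8 was 0.124 and 0.126 in GFP-HI against 0.0456 and 0.0474 in GFP-NEG, with little spread inside either fraction. HSP90B1 to HSP90AB1 was 1.27 and 0.912 against 0.729 and 0.613. The ratio of DNAJB1 to HSPA8 followed the replicate more than the fraction, with 0.317 and 0.384 in replicate 1 (GFP-HI and GFP-NEG) and 0.152 and 0.183 in replicate 2, and HSPH1 to HSPA8 was 0.100 and 0.0837 in replicate 1 and 0.0496 and 0.0451 in replicate 2. These pairs were chosen after the values were seen. An exact permutation test of 2 libraries against 2 cannot give a two-sided p below 0.333, so the ratios are given without a test.

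**Figure D3:**
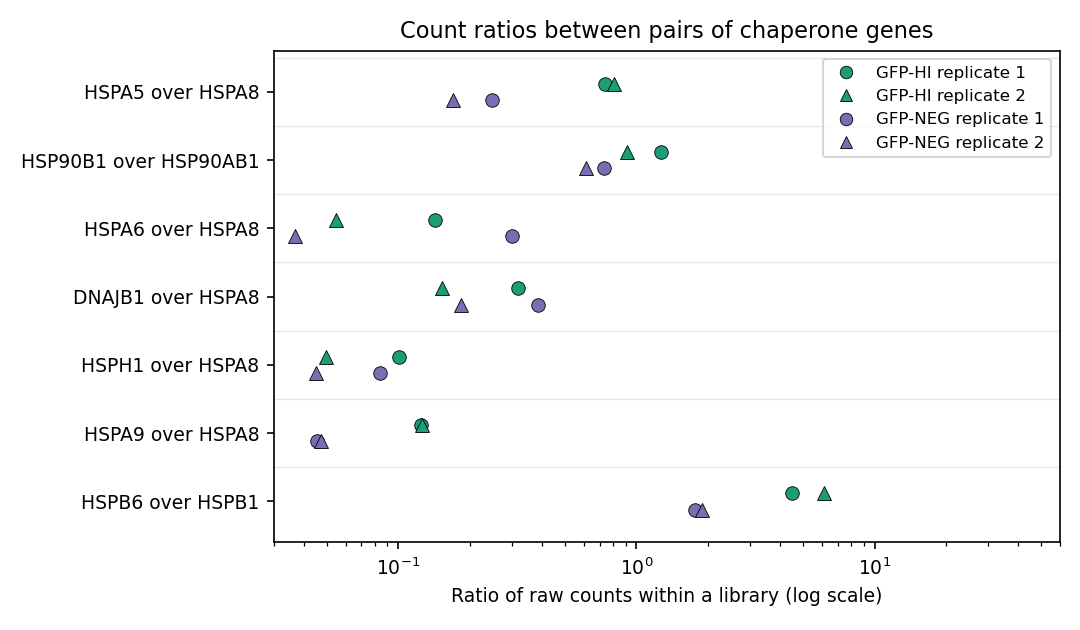
Ratio of raw counts of 2 chaperone genes within each library (log axis), with colour for the fraction and symbol for the replicate. HSPA5 and HSPA9 over HSPA8 separate the fractions (0.736 to 0.808 against 0.170 to 0.246 for HSPA5), whereas DNAJB1 and HSPH1 over HSPA8 separate the replicates.

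Of 7 mitochondrial members, grouped by location after the values were seen, DNAJC19 alone was called. Over all tested genes 36% were called, with 8.35% higher and 27.6% lower. HSPA9 was at 142 and 151 CPM in GFP-HI against 157 and 147 CPM in GFP-NEG (log2 fold change -0.05, SE 0.59, adjusted p = 0.96, edgeR). HSPD1 and HSPE1, the chaperonin and its lid, are neighbours in the RefSeq annotation of Sscrofa11.1. HSPD1 was at 184 and 324 CPM in GFP-HI against 246 and 217 CPM in GFP-NEG, and HSPE1 at 121 and 177 CPM against 135 and 111 CPM. Both were highest in GFP-HI replicate 2 and lower in GFP-HI than in GFP-NEG within replicate 1, so the fractions overlapped, and neither was called (log2 fold changes 0.13 and 0.27, adjusted p = 0.90 and 0.76, edgeR). DNAJA3, a mitochondrial J-domain protein, was at 68.1 and 35.1 CPM against 49.2 and 38.9 CPM. Of the fixed list of mitochondrial protein quality control genes, 1 of 11 was called: AFG3L2, a subunit of an inner membrane protease, rose by 1.54 on the log2 scale (adjusted p = 0.012, edgeR). Its call was lost with library size alone (adjusted p = 0.073), at a mean of at least 10 CPM (0.12) and on leaving out GFP-HI replicate 2 (1.30) or GFP-NEG replicate 2 (1.14).

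DNAJC19, a J-domain protein of the mitochondrial inner membrane related to the import motor, was called higher in GFP-HI. It was at 16.9 and 48.8 CPM in GFP-HI against 14.1 and 9.65 CPM in GFP-NEG. GFP-HI replicate 2 was high, and GFP-HI replicate 1 was only 1.20 times its GFP-NEG partner. Its log2 fold change of 1.47 (SE 0.56, adjusted p = 0.027, edgeR) was 0.54 without GFP-HI replicate 2. The call was also lost on leaving out GFP-NEG replicate 1 (1.77) or GFP-NEG replicate 2 (1.22), and with the replicate block (adjusted p = 0.059), in DESeq2 (0.081, or 0.20 with the block), with upper-quartile scaling (0.10), with library size alone (0.17), at a mean of at least 10 CPM (0.25), above the odorant receptor level (0.075) and with GFP-HI thinned (0.068).

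Among the small heat shock proteins, HSPB6 was higher in GFP-HI. HSPB6 (HSP20), known from smooth, cardiac and skeletal muscle, was at 412 and 277 CPM in GFP-HI against 171 and 49.2 CPM in GFP-NEG. Both GFP-HI libraries were above both GFP-NEG libraries, 2.41 times within replicate 1 and 5.62 times within replicate 2, and the log2 fold change was 1.64 (SE 0.65, adjusted p = 0.033, edgeR; 0.018 with the replicate block; 0.030 in DESeq2). The log2 fold change was 1.01 without GFP-NEG replicate 2 (not called) and 2.81 when GFP-NEG replicate 1 was left out instead. The call was also lost on leaving out GFP-HI replicate 1 (1.38) or GFP-HI replicate 2 (1.92), with upper-quartile scaling (adjusted p = 0.058), library size alone (0.074) and thinning of GFP-HI to the depth of GFP-NEG (0.064), at a mean of at least 10 CPM (0.20) and above the odorant receptor level (0.086). Of 7 smooth muscle and pericyte markers 1 was called higher and 3 lower in GFP-HI, against 8.35% and 27.6% of all tested genes. The summed level of the 7 markers was 1651 and 2396 CPM in GFP-HI against 2522 and 368 CPM in GFP-NEG. Their part in the HSPB6 value was not tested.

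HSPB1 (HSP27), which binds actin and responds to HSF1, was at 91.8 and 45.2 CPM in GFP-HI against 97.5 and 26.2 CPM in GFP-NEG. It was higher in replicate 1 in both fractions and not called (log2 fold change 0.15, SE 0.52, adjusted p = 0.86, edgeR). The count ratio of HSPB6 to HSPB1 was 4.49 and 6.12 in GFP-HI against 1.75 and 1.88 in GFP-NEG. HSPB8, a partner of BAG3 in the autophagic clearance of proteins, was at 35.7 and 41.2 CPM in GFP-HI against 38.3 and 4.17 CPM in GFP-NEG. It was 9.90 times as high in GFP-HI within replicate 2 and 0.931 times as high within replicate 1, and its log2 fold change of 0.86 was called only with the replicate block (adjusted p = 0.047) and without GFP-NEG replicate 1 (3.20, adjusted p = 0.0014) among the alternatives tried. It was 0.0046 without GFP-NEG replicate 2. CRYAB, the lens and muscle member of the same family, lies outside the name rule and had the same low library, with 59.1 and 66.0 CPM in GFP-HI against 112 and 8.33 CPM in GFP-NEG.

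HSPB7, a heart and muscle member, was called lower in GFP-HI at very low levels. It had 2 and 8 counts in GFP-HI against 9 and 43 in GFP-NEG, which is 0.0906 and 0.397 CPM against 1.40 and 4.71 CPM (log2 fold change -3.62, SE 1.35, adjusted p = 0.023, edgeR). The GFP-NEG values lie near the 95th percentile of odorant receptor genes, a family used mainly in the nose: 1.4 CPM in GFP-NEG replicate 1 and 4.89 CPM in replicate 2, against 0 in both GFP-HI libraries. The call was lost with the replicate block (adjusted p = 0.052, or 0.15 in DESeq2), above the odorant receptor level (0.059), and on leaving out GFP-HI replicate 1 (-2.84, adjusted p = 0.17) or GFP-NEG replicate 2 (-2.49, adjusted p = 0.57). HSPB3 had 6 to 22 counts per library and was not called. HSPB11, a subunit of intraflagellar transport rather than a typical small heat shock protein, was at 16.0 and 22.5 CPM against 18.2 and 12.4 CPM and was not called (adjusted p = 0.69, edgeR).

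The DNAJA genes assist HSP70 in general folding, DNAJA3 in the mitochondrion and the others in the cytosol. Of the DNAJA members 0 of 3 were called (edgeR, with 0 at an unadjusted p under 0.05 and 0 by DESeq2), with a median log2 fold change of 0.23. DNAJA2 was at 58.6 and 56.0 CPM in GFP-HI against 57.0 and 70.6 CPM in GFP-NEG, and DNAJA4 at 25.0 and 26.1 CPM against 19.4 and 12.7 CPM, apart but not past the threshold (adjusted p = 0.37, edgeR). DNAJA1, found by identifier only, was at 341 and 465 CPM against 761 and 441 CPM, with GFP-NEG replicate 1 high (log2 fold change -0.58, adjusted p = 0.58, edgeR).

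Of the 9 tested DNAJB genes 0 were called by edgeR, against 36% of all tested genes. DNAJB1 was the 1 gene with an unadjusted p under 0.05 and the 1 called by DESeq2. DNAJB4, a cytosolic relative of DNAJB1, was at 83.1 and 89.7 CPM in GFP-HI against 109 and 39.5 CPM in GFP-NEG. It did not share the order of DNAJB1, since the GFP-HI libraries lay between the GFP-NEG libraries (log2 fold change 0.22, adjusted p = 0.79, edgeR). DNAJB6 and DNAJB2, which keep aggregation-prone proteins soluble, had log2 fold changes of 0.17 and 0.10. DNAJB5, at 22.6 and 14.9 CPM against 13.4 and 7.67 CPM, was apart without a call (0.84, adjusted p = 0.29, edgeR). DNAJB13, a part of the radial spoke of motile cilia, had 36 and 19 counts in GFP-HI against 11 and 0 in GFP-NEG, and of 7 motile cilia markers 0 were called (edgeR; 1 at an unadjusted p under 0.05 and 0 by DESeq2).

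The DNAJC genes, the most varied and largest branch, held 3 of the 4 members called higher, out of 21 tested and 24 counted. Of all tested genes 8.35% were called higher, and of those with a symbol 11.3%. The number of DNAJC genes called higher was 2 with upper-quartile scaling and in DESeq2, and 1 with library size alone. It was 0 at a mean of at least 10 CPM, where 16 were tested. DNAJC27, a small GTPase with a J-domain, was at 20.8 and 22.2 CPM in GFP-HI against 6.37 and 2.08 CPM in GFP-NEG. The GFP-HI libraries were nearly equal and both above GFP-NEG, 3.27 times within replicate 1 and 10.7 times within replicate 2. The log2 fold change was 2.37 (SE 0.66, adjusted p = 0.0015, edgeR), and it passed with the replicate block (adjusted p = 7.4e-04), under each other scaling and in DESeq2 (adjusted p = 0.0060). The call was lost at a mean of at least 10 CPM (adjusted p = 0.054) and without GFP-NEG replicate 2 (1.76, adjusted p = 0.16).

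DNAJC12, which assists the folding of aromatic amino acid hydroxylases, had the largest rise of the tested members but low counts. It was at 4.76 and 12.3 CPM in GFP-HI against 1.71 and 0.219 CPM in GFP-NEG, the latter from only 11 and 2 counts. Both GFP-HI libraries were above both GFP-NEG libraries. Its log2 fold change was 3.20 (SE 1.00, adjusted p = 0.0058, edgeR), and 5.23 with GFP-NEG replicate 1 removed. The call was lost on leaving out GFP-HI replicate 2 (2.36, adjusted p = 0.22) or GFP-NEG replicate 2 (2.31, adjusted p = 0.13), with library size alone (adjusted p = 0.058) and in DESeq2 with the replicate block (adjusted p = 0.057). With a mean under 10 CPM it falls outside the rule for named members, as does HSPB7, and both are described because they were called.

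The other 18 tested DNAJC genes were not called, and the order of the fractions varied among them. DNAJC8, a splicing-associated protein, was at 101 and 169 CPM in GFP-HI against 85.1 and 75.4 CPM in GFP-NEG (log2 fold change 0.75, adjusted p = 0.31, edgeR). DNAJC18 was at 63.8 and 47.6 CPM against 33.5 and 21.5 CPM, a log2 fold change of 1.02 (adjusted p = 0.11, edgeR). DNAJC14 was at 153 and 184 CPM against 188 and 143 CPM, overlapping. DNAJC9, a histone chaperone, had the opposite order, at 24.8 and 40.2 CPM in GFP-HI against 43.5 and 46.5 CPM in GFP-NEG, and was not called (-0.47, adjusted p = 0.51, edgeR). DNAJC7, DNAJC11, DNAJC13, DNAJC15 and DNAJC16 had log2 fold changes from 0.0042 to 0.33. DNAJC5, the cysteine string protein of secretory vesicles, was low and uneven, at 2.40 and 0.347 CPM in GFP-HI against 2.64 and 2.85 CPM in GFP-NEG, with GFP-HI replicate 2 the low library (-0.99, adjusted p = 0.55, edgeR). Of the 21 tested DNAJC genes 18 fold changes were positive, with a median of 0.46, but 12 were with upper-quartile scaling (median 0.13) and 10 with library size alone (median -0.0044).

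The replicates agreed on direction for part of the family. The same counts were not made over all tested genes, so whether this agreement is low for these libraries was not tested. The difference within replicate 1 and within replicate 2, on the log2(CPM + 1) scale, was positive in both for 19 of the 54 members and negative in both for 10. For 17 it was negative in replicate 1 and positive in replicate 2, and for 8 the reverse. The median difference was -0.0011 in replicate 1 and 0.57 in replicate 2. All 6 called members had the same sign in both replicates, as did HSPA8, DNAJB1, HSPH1 and HSP90B1.

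**Figure D4:**
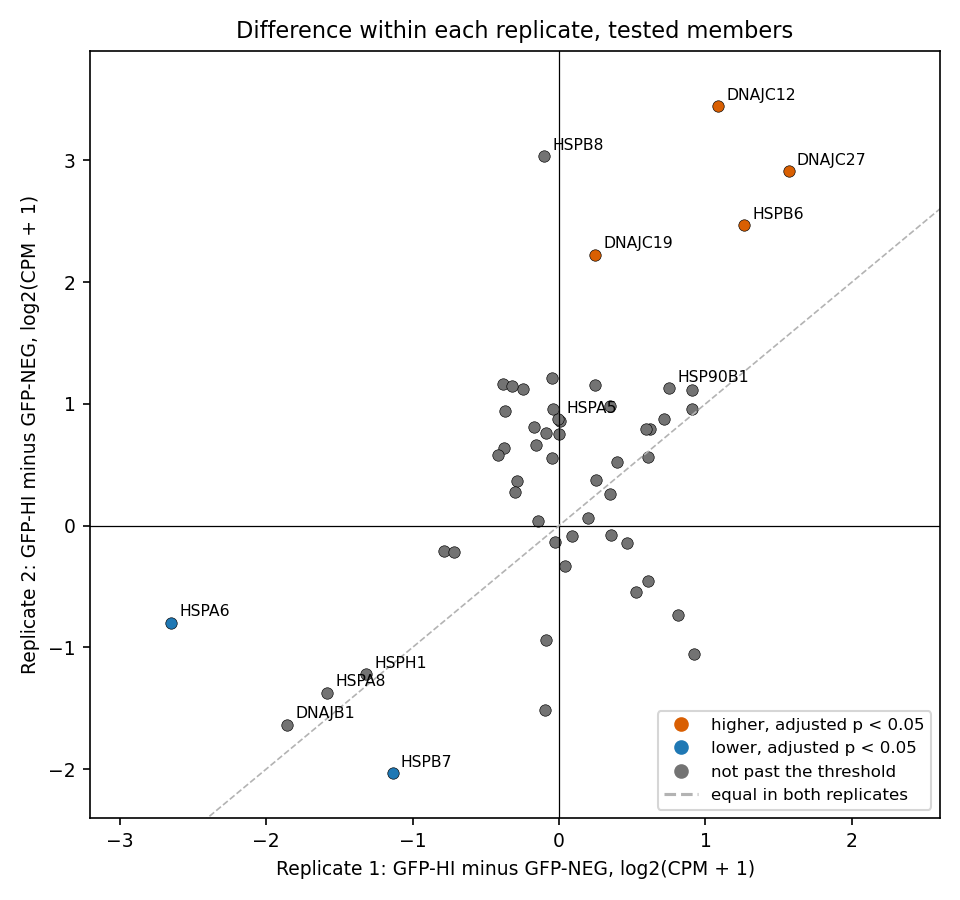
Difference GFP-HI minus GFP-NEG in log2(CPM + 1) within replicate 1 (horizontal axis) and within replicate 2 (vertical axis) for the 54 tested members, with the dashed line where both are equal. DNAJB1, HSPA8 and HSPH1 lie near that line below 0, HSPA6 is far lower in replicate 1 and HSPB8 and DNAJC19 are high in replicate 2 only.

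DNAJB8, DNAJC5B, DNAJC5G, DNAJC22 and HSPB9 made up the 5 members too low to be tested, with 0 to 16 counts per library. DNAJC5B had 0 counts in every library, where 3 counts correspond to 0.136 and 0.149 CPM in GFP-HI against 0.466 and 0.329 CPM in GFP-NEG. DNAJC22 and HSPB9 were at 0 in both GFP-HI libraries, with 2 and 12, and 4 and 7 counts in GFP-NEG, under the odorant receptor level there. The remaining family genes with an identifier only, DNAJB11, DNAJC4 and DNAJC25, were not called (log2 fold changes -0.39, 0.66 and 0.22, adjusted p = 0.61, 0.35 and 0.79, edgeR).

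Regulators and partners of the machinery were examined as fixed lists. Over all tested genes 8.35% were called higher and 27.6% lower. Of 7 HSF and stress regulators 1 was called. All 7 fold changes were positive with TMM scaling, and 5 were with upper-quartile scaling or library size alone. HSBP1, a small protein that binds HSF1, was at 223 and 438 CPM in GFP-HI against 163 and 58.8 CPM in GFP-NEG (log2 fold change 1.57, adjusted p = 0.041, edgeR). The HSBP1 call was lost with the replicate block (adjusted p = 0.052), upper-quartile scaling (0.077), library size alone (0.11), thinning (0.073), at a mean of at least 10 CPM (0.22), above the odorant receptor level (0.095) and on leaving out GFP-HI replicate 2 (1.02) or GFP-NEG replicate 2 (1.02). HSF1 itself was at 209 and 212 counts (of 24200550 and 24689986) in GFP-HI against 33 and 45 in GFP-NEG, apart in CPM but not called (0.99, adjusted p = 0.32, edgeR). Of 15 measured HSP70 exchange factors and partners, SGTB was called higher (445 and 490 counts in GFP-HI against 29 and 62 in GFP-NEG, log2 fold change 1.97, adjusted p = 0.0069, edgeR), and 0 were lower by edgeR, by DESeq2 or at an unadjusted p under 0.05. The SGTB call was lost in DESeq2 with the replicate block (adjusted p = 0.055), with library size alone (0.071), at a mean of at least 10 CPM (0.088) and on leaving out GFP-NEG replicate 1 (1.71), GFP-HI replicate 2 (1.87) or GFP-NEG replicate 2 (2.30). BAG3, an HSF1-induced partner of HSP70 and HSPB8, was at 102 and 34.5 CPM against 108 and 37.9 CPM, so it followed the replicate and not the fraction.

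Of 22 HSP90 co-chaperones, FKBP5, a glucocorticoid-induced immunophilin, was called lower (76.0 and 22.5 CPM in GFP-HI against 205 and 115 CPM in GFP-NEG, log2 fold change -1.70, adjusted p = 0.010, edgeR), and 0 were called higher (edgeR; 2 at an unadjusted p under 0.05 and 0 by DESeq2). The FKBP5 call was lost at a mean of at least 10 CPM (adjusted p = 0.059), above the odorant receptor level (0.056) and on leaving out GFP-NEG replicate 1 (-1.23), GFP-HI replicate 2 (-1.05) or GFP-NEG replicate 2 (-2.06). STIP1, which links HSP70 to HSP90, was at 151 and 164 CPM against 149.5 and 91.8 CPM and was not called (adjusted p = 0.65, edgeR). Of 14 subunits of the cytosolic chaperonin TRiC, prefoldin and a related factor, 0 were called in either direction by edgeR or DESeq2 (2 higher at an unadjusted p under 0.05), with log2 fold changes from -0.13 to 1.14. For both lists, the shares of all tested genes were 8.35% higher and 27.6% lower by edgeR.

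The authors' deposited table lists 54 of the 59 members and calls 3 higher (DNAJC12, DNAJC27 and HSPB6) and 4 lower (DNAJB1, HSPA6, HSPA8 and HSPB7) in GFP-positive cells. DESeq2 run on the counts here gave the same 7 calls (5.6% of all genes higher, 24.9% lower). In the authors' deposited table HSPA8 has a log2 fold change of -1.49 with an adjusted p-value of 0.0081, and DNAJB1 one of -1.80 with 0.010.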

How the data were processed

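The authors deposited whole-number counts per gene for 4 libraries (29263 genes each). The submitters' processing notes name featureCounts, Subread 1.5.2 and DESeq2 1.37.6, with no roles given. Aligner, build, strand and multi-mapping settings are not given in the sources used here. Per the file headers, the authors' table of the comparison holds a log2 fold change, a score (test statistic), p-values, a mean normalized signal and a second copy of the counts, identical in all 4 columns. Its 4 other columns of values per sample were not used.

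Of the identifiers, 834 were given a symbol from the name table provided (844 had one). Fractions were compared in R 4.3.3 with the quasi-likelihood test of edgeR 4.0.16, run on counts with TMM scaling, filterByExpr and group as the only term, over 19682 genes holding 99.8% of counts, with Benjamini-Hochberg adjustment and a threshold of 0.05. CPM are counts over the library total and TMM factor. The SE is the fold change divided by the square root of F. Alternatives were other scalings and filters, thinned GFP-HI counts, DESeq2 1.42.0, the replicate number as a block and leaving out each library.

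The labels number biological replicates 1 and 2. Headings of the comparison table name pig 1 and pig 2 for both fractions, from which the pairing by animal was taken, and deviations from the group means correlated across genes with an r of 0.19 between GFP-HI and GFP-NEG of the same number. Replicates differed by far more than sampling noise. Members named with values in every library were the called ones with a mean of at least 10 CPM (at most 10 in each direction) and the 3 highest of each family branch; HSPB7, DNAJC12, HSPH1 and others are named besides, after their values were seen. The members and the gene lists were chosen with earlier results of these data known. On simulated counts for 19331 genes of this comparison, 186 of them changed, edgeR recovered 36.6% of changes of 3 and 3.23% of changes of 2 on the log2 scale. There were 2 false among 39 calls. In the data themselves 36% of tested genes were called, a far larger part, so these rates need not hold for them.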

Additional observations from a re-analysis of the deposited data

How the results depend on the processing

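The number of members called higher in GFP-HI (4) was 2 with upper-quartile scaling, above the odorant receptor level, with GFP-HI thinned and in DESeq2 with the replicate block, 1 with library size alone and 0 at a mean of at least 10 CPM, where fewer genes are tested. The number called lower (2) was 4 with upper-quartile scaling, library size alone, DESeq2 and DESeq2 with the block, 1 with GFP-HI thinned, and 0 above the odorant receptor level and at a mean of at least 10 CPM. Leaving out 1 library gave 0 to 4 higher and 1 lower; in these fits the lone library is assumed to vary like the other group. The replicate block gave 4 higher (3 of them shared, with HSPB8 in place of DNAJC19) and 2 lower (DNAJB1 in place of HSPB7). It changed no other call among the 54 members. The median log2 fold change of tested members (0.28) was -0.15 with library size alone, and 0.16 to 0.53 with single libraries left out. HSPA6 ranged from -3.17 to 0.0012 with single libraries left out, the latter without GFP-NEG replicate 1. Of 445 values of 32 single genes, 355 kept direction and call, 33 lost and 13 gained one, and 43 changed the sign of an uncalled value, none larger than 0.51. The remaining 1 was that of HSPA6 without GFP-NEG replicate 1, where a called value changed its sign. The causes were not tested. One count in GFP-NEG is worth 0.110 to 0.155 CPM, which limits members near 1 CPM.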
